A study of Mus musculus with 8 samples.

Results

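The nuclear genes for the subunits of the respiratory chain and the ATP synthase were followed in the distal colon of mice with and without human Siglec-XII in the intestinal epithelium. They were chosen by gene symbol alone: the Nduf, Sdh, Uqcr, Cox4 to Cox8 and Atp5 subunit families together with Cyc1 and Cycs, with symbols that contain -ps left out and 1 row kept for each symbol. The rule found 90 genes among the 52143 genes of the table. Of these, 38 were counted with complex I, 4 with complex II, 9 with complex III, 21 with complex IV and 17 with complex V, and Cycs encodes cytochrome c. Ndufa4 and its relative Ndufa4l2 were placed in complex IV, where the Ndufa4 protein is found. The annotation used here calls 86 of the 90 protein-coding, and Ndufa11b, Ndufb4c, Ndufs6b and Cox6c2 processed pseudogenes.

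Bulk RNA-Seq of whole distal colon was available for 4 Control and 4 Siglec-XII samples, all taken on day 12. Control mice were Villin1-Cre-ERT littermates, and Siglec-XII mice were SIGLEC12-Villin1-Cre-ERT, heterozygous for a ROSA26 knock-in in which a CAG promoter drives SIGLEC12 once Cre removes a floxed EGFP-stop. Both groups were 8-week-old females, carried the same tamoxifen-dependent Cre, which the Villin1 promoter confines to the epithelium of villi and crypts, and received 5 daily intraperitoneal injections of tamoxifen (10 mg/ml) that ended 7 days before harvest. The labels do not tie a sample to an animal, so P values measure the spread between these samples. According to the paper's Methods, each sample gave separate technical replicate libraries. The labels do not say whether the 4 samples of a group include such libraries. Mice have no SIGLEC12 gene and the transgene has no row in the table, so its level was not checked here.

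The complexes sit in the inner mitochondrial membrane. Complex I takes electrons from NADH and complex II from succinate, complex III passes them from ubiquinol to cytochrome c, complex IV passes them to oxygen, and complex V uses the resulting proton gradient to make ATP. Complexes I, III, IV and V each combine nuclear subunits with subunits encoded in mitochondrial DNA, whereas complex II is wholly nuclear. Each has a catalytic core and smaller accessory subunits, and several complex IV subunits exist as a common isoform and a second isoform of muscle, testis or hypoxic tissue. Colonocytes are known for oxidizing butyrate, which feeds this chain.

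The deposited values were log2(TPM + 1), where TPM is a level that accounts for the length of the transcript and the total of the sample, and all log2 values below are on that scale. TPM carries no sequencing depth, so its part in the precision is unknown. Genes were tested with limma if their TPM was at least 1 in at least 4 samples, which left 13164 genes. The levels of all these genes were not centred alike: the median log2 difference, Siglec-XII minus Control, was -0.152 over all tested genes, and the shift came with Siglec-XII samples 3 and 4. These 2 samples stood apart on the first principal component of all genes, which held 40.3% of the variance, at 36.2 and 50.2 against -4.81 and -6.66 for Siglec-XII samples 1 and 2 and -29.0 to -6.18 for the controls. Without them the median over all genes was 0.003. The 12 colonocyte and epithelial marker genes were high in both groups, with a summed TPM of 13483 to 17990 in Control and 14349 to 18041 in Siglec-XII, and none of them passed unadjusted P. Other cell type markers did differ at unadjusted P. Of 9 tested smooth muscle markers 5 were lower in Siglec-XII, against 7.67% of all genes. Of 3 tested pericyte and endothelium markers 2 were lower too (Pecam1 and Notch3), while Kcnj8 was higher by 0.395 and did not pass. Of 6 tested skeletal and heart muscle markers 4 were higher, against 1.19% of all genes. Of the adipocyte, brown adipocyte and leukocyte markers tested, none passed.

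Of the 90 subunit genes, 84 passed the filter on low values, and none of the 84 differed between the groups at an adjusted p of 0.05 (limma with Benjamini-Hochberg adjustment over all genes, smallest adjusted p 0.515). Over all genes 0.038% passed. At an unadjusted P of 0.05, 4 of the 84 were higher in Siglec-XII (Cox6c, Cox7b, Cox7a2 and Ndufa6), which is 4.76% against 1.19% of all genes, and 1 was lower (Cox6b2), which is 1.19% against 7.67% of all genes. The 4 Siglec-XII samples all lay above the 4 controls for 4 genes (Ndufa6, Ndufs8, Cox6c and Atp5j), or 4.76% against 1.05% of all genes. They lay below the controls for no gene, against 4.06% of all genes.

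Relative to all genes, the subunit genes as a group had higher differences, by an amount that depended on the samples and changed with quantile normalization. Their median log2 difference was 0.039, or 0.191 above that of all genes, and 56 of 84 (66.7%) had a difference above 0, against 21.9% of all genes. Without Siglec-XII samples 3 and 4 the median was 0.022 and lay 0.019 above that of all genes. At unadjusted P, 0 members then passed in either direction, against 1.18% of all genes higher and 1.57% lower. With each sample centred on its median, the members' median was 0.251 and that of all genes 0.06, so the lead stayed at 0.191. Quantile normalization gave 0.117 for the members and 0.017 for all genes, a lead of 0.1. Summed over the 90 genes, TPM was 38762, 37962, 35652 and 36882 in Control samples 1 to 4 and 37765, 38170, 39886 and 39681 in Siglec-XII samples 1 to 4. Siglec-XII samples 3 and 4 were the highest of the 8, and the other Siglec-XII samples lay within the range of the controls. In bulk tissue, fewer cells of a type and less RNA per cell cannot be told apart.

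By complex, the median log2 difference was 0.013 for complex I (36 genes tested), 0.024 for complex II (4 genes), 0.053 for complex III (9 genes), 0.079 for complex IV (17 genes) and 0.047 for complex V (17 genes), and that of Cycs was -0.007. The order of the complexes rested on few samples: without Siglec-XII samples 3 and 4 the medians were 0.015, 0.077, 0.030, 0.008 and 0.039 for complexes I to V, and that of complex I was -0.004 without Control sample 3. Of the 5 genes past unadjusted P, 4 belonged to complex IV and 1, Ndufa6, to complex I.

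**Figure D1:**
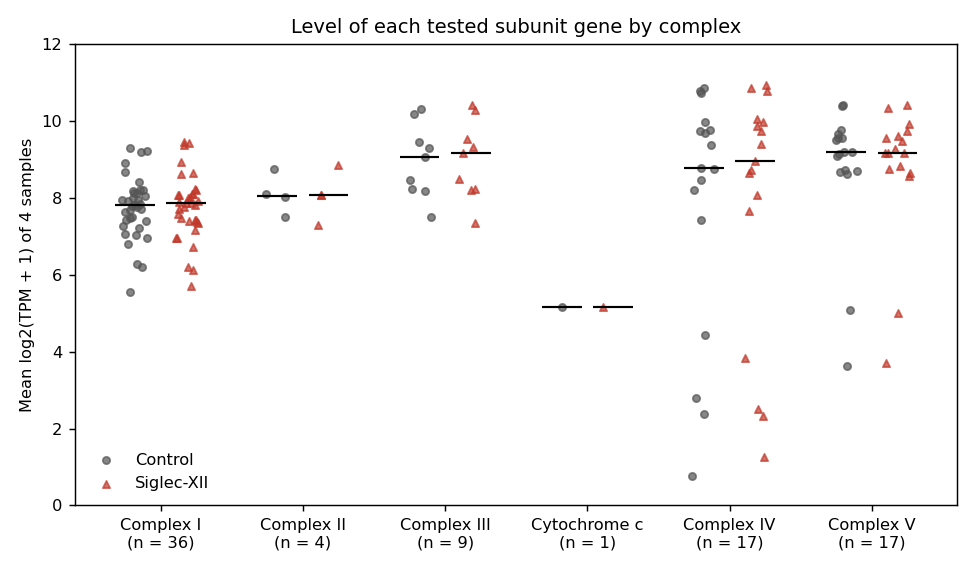
Mean log2(TPM + 1) of the 4 Control samples (grey circles) and the 4 Siglec-XII samples (red triangles) for each of the 84 tested genes, by complex, with the number of genes under each name and a line at the median. The median control level ran from 7.8 in complex I to 9.19 in complex V, and the ranges of both groups overlapped in every complex.

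Levels differed far more between the genes of a complex than between the groups. Complex IV held the highest level, Cox4i1 at 10.85 ± 0.06 (mean ± SD, n = 4), an accessory subunit of cytochrome c oxidase, closely followed by Cox8a at 10.79 ± 0.10 and Cox6a1 at 10.73 ± 0.08, and the ranges of these 3 overlapped. In complex V the beta subunit Atp5b, which carries the catalytic sites, stood at 10.41 ± 0.08, level with the c-ring subunit gene Atp5g3 at 10.39 ± 0.04. In complex III the hinge protein Uqcrh reached 10.31 ± 0.15 and Uqcr10 10.17 ± 0.08, which overlap in spread. In complex I the highest were the accessory subunits Ndufb9 at 9.30 ± 0.11, Ndufb8 at 9.21 ± 0.09 and Ndufa6 at 9.19 ± 0.05, while the core subunit Ndufs1 stood at 6.28 ± 0.14. Cycs, the mobile electron carrier, was listed at 5.16 ± 0.10, below nearly all subunits of the complexes it connects.

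Cox6c (chr15:35925886-35938246, GRCm38), a small subunit of complex IV, had the smallest P of the 84. Its log2 level was 9.70, 9.78, 9.75 and 9.84 in Control samples 1 to 4 and 9.93, 9.93, 9.98 and 10.09 in Siglec-XII samples 1 to 4. All Siglec-XII samples lay above all controls, by a difference of 0.22 ± 0.08 (SE, adjusted p = 0.515, limma). Cox6c passed unadjusted P in 17 of the 18 ways of processing tried for it, the reported one included, and the exception was the comparison without Siglec-XII samples 3 and 4, and its adjusted p was never below 0.26 (limma, range 0.26 to 1.0).

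Cox7b (chrX:106015700-106022450), another small subunit of complex IV, stood at 8.53, 8.44, 8.45 and 8.39 in the controls and at 8.62, 8.53, 8.71 and 8.76 in Siglec-XII. The lowest Siglec-XII sample met the highest control, and the difference was 0.20 ± 0.08. Cox7a2 (chr9:79755361-79759878), the widely expressed isoform of subunit VIIa, stood at 8.87, 8.75, 8.73 and 8.71 in the controls and at 8.91, 8.86, 8.95 and 9.06 in Siglec-XII. Control sample 1 reached into the Siglec-XII range, and the difference was 0.18 ± 0.08. The adjusted p was 0.515 for both (limma).

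In complex I, Ndufa6 (chr15:82350140-82354322), an accessory subunit of the LYR protein family, stood at 9.13, 9.21, 9.15 and 9.25 in the controls and at 9.27, 9.34, 9.37 and 9.49 in Siglec-XII. The groups did not overlap, and the difference was 0.18 ± 0.08 (adjusted p = 0.515, limma). Ndufs8 (chr19:3908863-3912774), a core subunit that holds iron-sulphur clusters, stood at 7.18, 7.24, 7.23 and 7.23 in the controls and at 7.28, 7.38, 7.42 and 7.35 in Siglec-XII. Its groups did not overlap either, with a difference of 0.14 ± 0.07 that missed the unadjusted threshold too. In complex V only Atp5j (chr16:84827866-84835625), the coupling factor of the stalk that joins the membrane part and the catalytic part of the synthase, had groups that did not overlap. It stood at 8.72, 8.76, 8.68 and 8.64 in the controls and at 8.81, 8.78, 8.82 and 8.87 in Siglec-XII, a difference of 0.12 ± 0.07 that did not pass either.

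**Figure D2:**
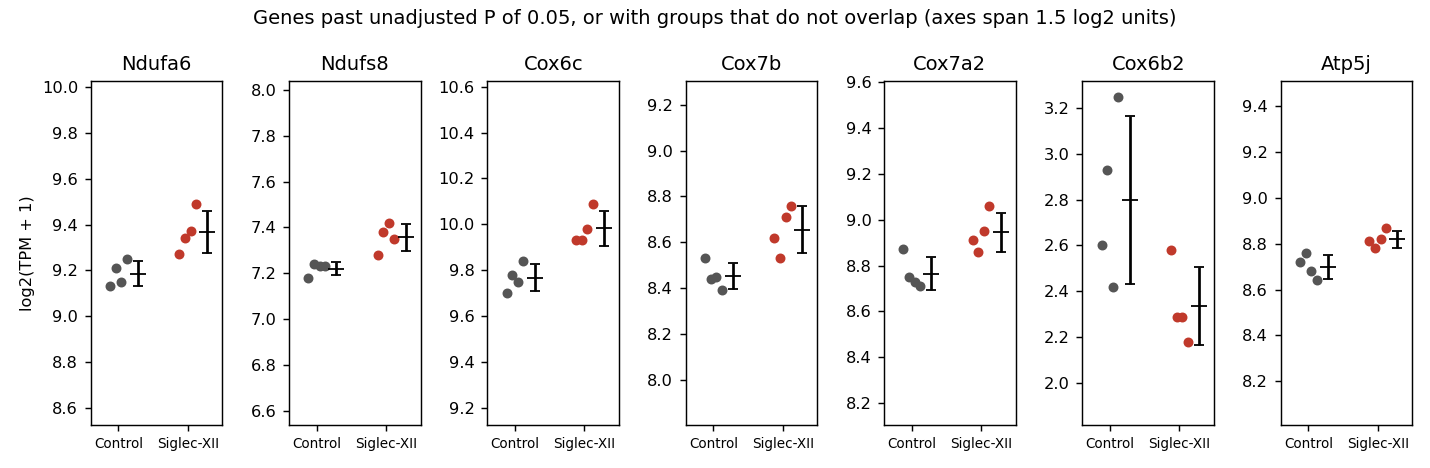
Level, log2(TPM + 1), of the 7 genes that passed unadjusted P of 0.05 or whose groups did not overlap, 1 point a sample, with the mean and SD of each group beside the points and each axis spanning 1.5 log2 units. The Siglec-XII points of Cox6c lie above all its control points by a step of at most 0.22 between means, while the controls of Cox6b2 are spread from 2.42 to 3.25.

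Cox7b and Ndufa6 passed unadjusted P in 9 of the 18 ways of processing, Cox7a2 in 10, Ndufs8 in 5, Atp5j in 3 and Cox6b2 in 7 of 17. The differences of Cox6c, Cox7b, Cox7a2, Ndufa6, Ndufs8 and Atp5j were above 0 in all 18. Cox6b2 (chr7:4751792-4753094), the testis isoform of subunit VIb, was the 1 gene lower at unadjusted P. It was present at a low level of 2.60, 2.93, 2.42 and 3.25 in the controls and 2.58, 2.29, 2.29 and 2.18 in Siglec-XII. The groups overlapped, with Control samples 2 and 4 the highest, and the difference was -0.47 ± 0.20 (adjusted p = 0.515, limma), below 0 in all 17 ways of processing in which the gene was tested. Testis germ cell markers were near 0 in both groups, at a summed TPM of at most 0.639, with Tnp1 and Prm1 at 0 in all 8 samples.

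In complex II, which also serves the citric acid cycle as succinate dehydrogenase, the 4 genes did not vary together. Sdha, the flavoprotein that oxidizes succinate, stood at 7.27, 7.61, 7.68 and 7.44 in the controls and at 7.67, 7.60, 7.04 and 6.82 in Siglec-XII (difference -0.22 ± 0.20, adjusted p = 0.61, limma). Siglec-XII samples 1 and 2 lay within the range of the controls, and samples 3 and 4 below it. Sdhb, the iron-sulphur subunit, ran from 7.96 to 8.08 in the controls and from 8.06 to 8.10 in Siglec-XII, with a difference of 0.07 ± 0.07. The membrane anchors Sdhc and Sdhd differed by -0.02 ± 0.08 and 0.12 ± 0.08. Sdhd was highest in Siglec-XII samples 3 and 4, at 8.89 and 8.92. Sdhc, with 507 coding bases, was lowest in those 2 samples, at 8.03 and 7.95, against 8.07 to 8.17 in the controls.

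Other large subunits followed Sdha. Ndufs1, the largest subunit of complex I, stood at 6.11, 6.37, 6.42 and 6.23 in the controls and at 6.39, 6.37, 5.98 and 5.75 in Siglec-XII. Atp5a1, the alpha subunit of the synthase, stood at 8.62, 8.78, 8.84 and 8.66 in the controls and at 8.84, 8.80, 8.45 and 8.19 in Siglec-XII. Uqcrc1, a core protein of complex III, stood at 7.49 to 7.53 in the controls and at 7.57, 7.51, 7.29 and 7.06 in Siglec-XII. In each of these the low values were those of Siglec-XII samples 3 and 4, the groups overlapped, and the adjusted p was 0.636, 0.615 and 0.559 (limma). The small accessory subunit Ndufb8 showed the opposite order, at 9.29, 9.26, 9.08 and 9.22 in the controls and 9.20, 9.27, 9.58 and 9.73 in Siglec-XII (difference 0.23 ± 0.13, adjusted p = 0.515, limma), the largest difference in complex I. Ndufb8 has 558 coding bases, more than the 507 of Sdhc, so these 2 genes ran against an order by length.

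**Figure D3:**
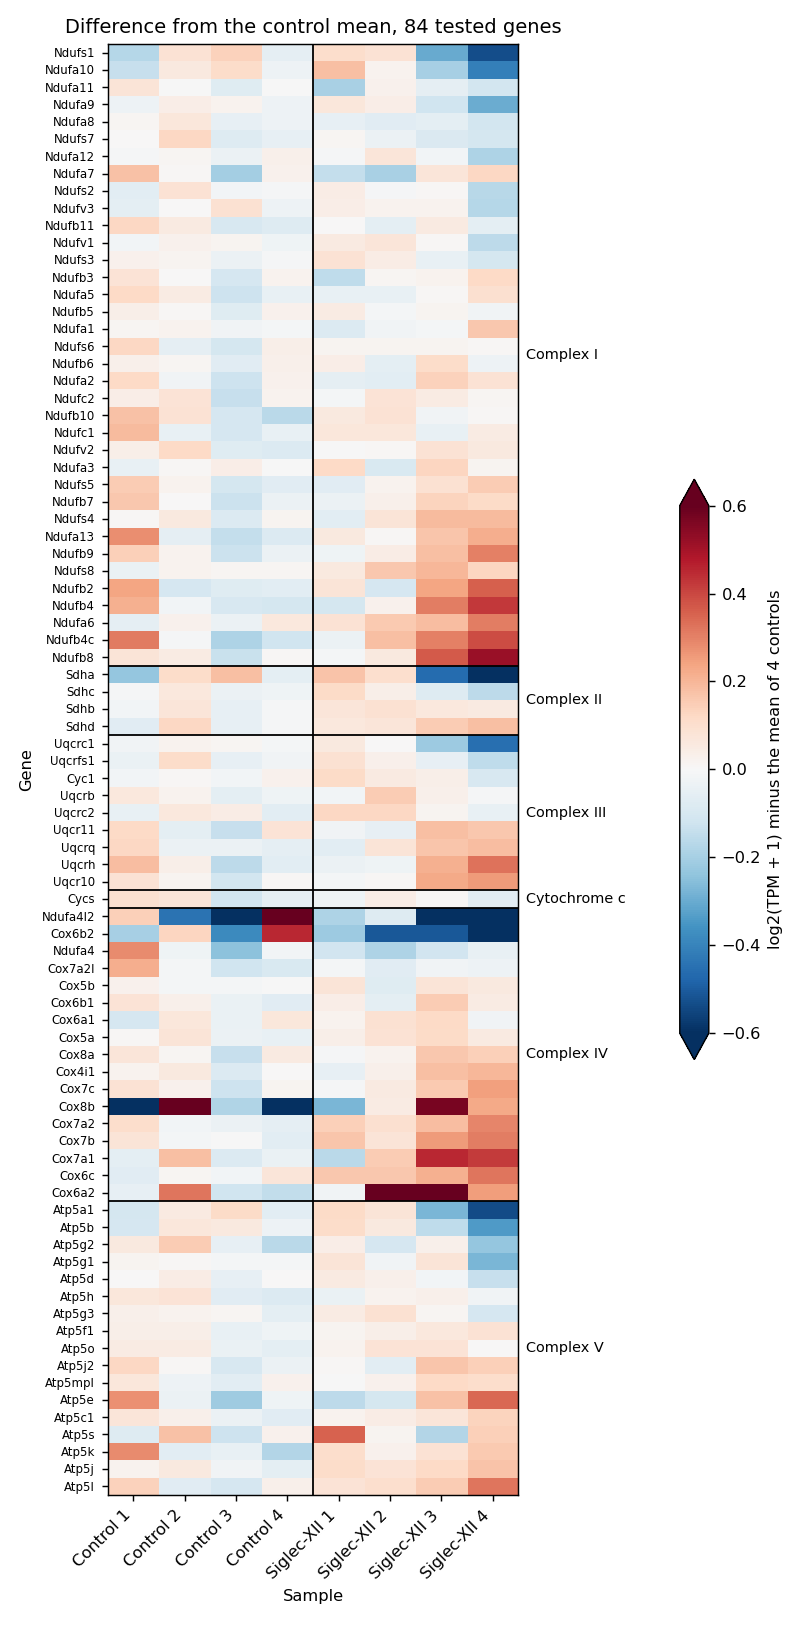
Difference of each of the 84 tested genes (rows, by complex and ordered by the group difference) from the mean of the 4 controls in each sample (columns), on a log2 scale with colours that saturate at 0.6 in either direction. Large subunits such as Ndufs1, Sdha, Uqcrc1 and Atp5a1 are blue in Siglec-XII samples 3 and 4, and small subunits such as Ndufb8, Cox7b and Atp5l are red there.

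The order followed the length of the coding sequence in part. Over the 83 tested members with an annotated coding sequence, Spearman's rho between coding length and the log2 difference was -0.431, and over 11792 tested genes it was -0.362. These are descriptions across genes that share libraries. The 11 members with more than 1000 coding bases had a median difference of -0.080, with 10 of the 11 below 0 (all but Uqcrc2), and the 23 members with up to 300 bases had a median of 0.079. All genes of the same length classes had medians of -0.202 (7756 genes) and -0.033 (303 genes). In the classes between, members had medians of 0.034 (300 to 600 bases, 39 genes) and 0.041 (600 to 1000 bases, 10 genes), against -0.056 and -0.091 for all genes.

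The relation was found within both groups. For the difference of a single sample from the mean of the (other) controls, rho over the 83 members was -0.485, 0.441, 0.516 and -0.124 in Control samples 1 to 4 and 0.398, 0.208, -0.501 and -0.558 in Siglec-XII samples 1 to 4. Control sample 1 thus had the same sign as Siglec-XII samples 3 and 4, and Siglec-XII samples 1 and 2 the same sign as Control samples 2 and 3. Without Siglec-XII samples 3 and 4, 0 of the 11 long members had a difference below 0, and with each sample centred on its median 1 of 11 did, so the direction for the large subunits rested on these samples and on the scaling. What set the slope in a sample was not tested.

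**Figure D4:**
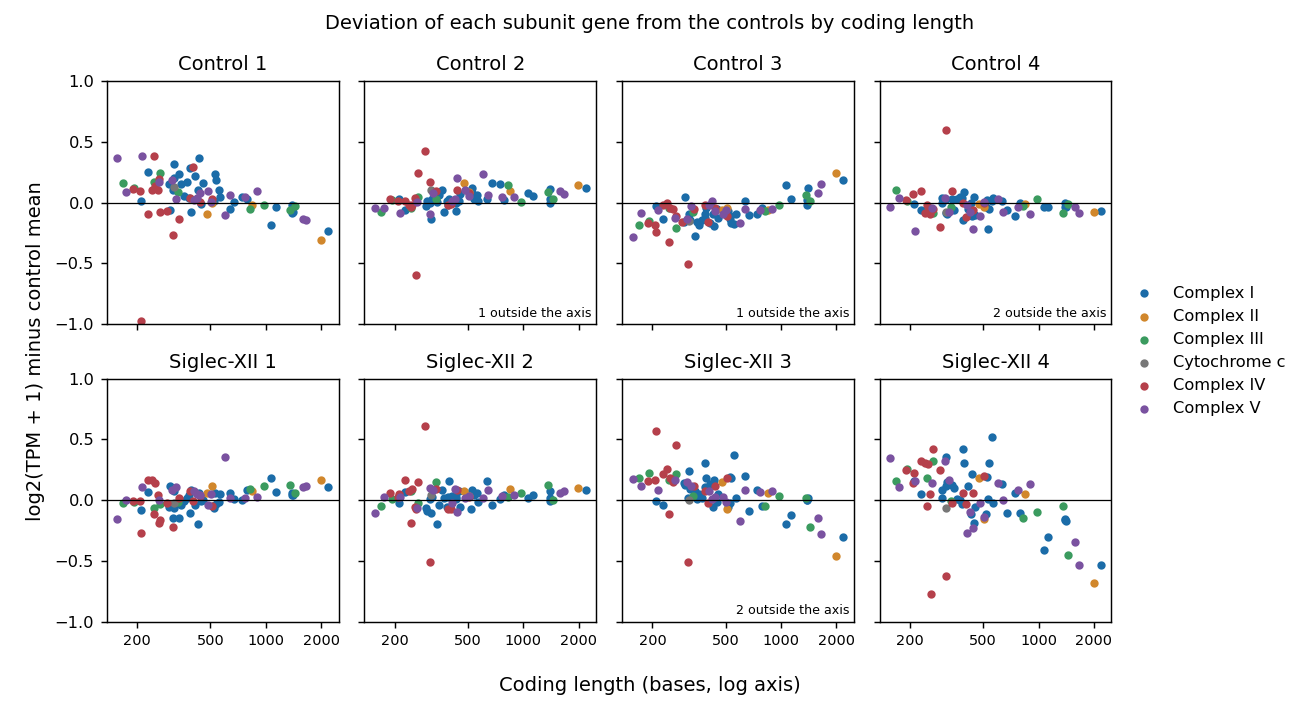
Difference of each member from the mean of the 4 controls (for a control sample, of the other 3), log2(TPM + 1), against coding length on a log axis, 1 panel a sample and 1 point a gene, coloured by complex. The cloud tilts down with length in Control 1, Siglec-XII 3 and Siglec-XII 4 (rho -0.485, -0.501 and -0.558) and up in Control 2, Control 3 and Siglec-XII 1 (rho 0.441, 0.516 and 0.398).

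Of the complex IV isoforms, the common form had by far the higher level for most subunits, in all 8 samples. Cox4i2, the lung and hypoxia isoform of subunit IV, was at 0.0171% to 0.0385% of the TPM of Cox4i1 in the 8 samples. Cox6a2, the heart and skeletal muscle isoform of subunit VIa, was at 0.0296% to 0.154% of Cox6a1. Cox6b2 was at 0.415% to 1.08% of Cox6b1. Subunit VIIa was the exception, since Cox7a1, its heart and muscle isoform, reached 31.8% to 47.9% of Cox7a2.

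Cox7a1 stood at 7.37, 7.61, 7.35 and 7.39 in the controls and at 7.27, 7.58, 7.88 and 7.85 in Siglec-XII (difference 0.21 ± 0.14, adjusted p = 0.535, limma). The log2 ratio of Cox7a1 to Cox7a2 was -1.34 ± 0.15 (SD, n = 4) in the controls and -1.31 ± 0.25 in Siglec-XII, and the groups overlapped. Cox6a2 was barely above the filter, at 0.71, 1.08, 0.64 and 0.61 in the controls and 0.74, 1.37, 1.94 and 1.01 in Siglec-XII. It reached a TPM of 1 only in Control sample 2 and Siglec-XII samples 2, 3 and 4, so it passed the filter mainly through Siglec-XII. Its difference of 0.51 ± 0.25 (adjusted p = 0.515, limma) was the highest of the tested members. Because the filter favoured high Siglec-XII values here, that rank cannot be read as a change. Of 12 skeletal and heart muscle markers 6 were tested. Of these 4 (Acta1, Ckm, Tnnt3 and Mb) were higher at unadjusted P, against 1.19% of all genes. The summed TPM of the 12 was 21.4 to 54.5 in the controls and 41.9 to 124 in Siglec-XII, and Myh6 was at 0 in every sample. Of 9 tested smooth muscle markers 5 were lower at unadjusted P, against 7.67% of all genes. The smooth muscle list had a summed TPM of 652 to 1038 in the controls and 314 to 671 in Siglec-XII. The part of these muscle cells in the values of the isoforms was not tested.

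Cox8b, the isoform of subunit VIII found in muscle and brown fat, stood at 1.64, 4.09, 2.19 and 1.57 in the controls and at 2.10, 2.42, 2.94 and 2.60 in Siglec-XII, and was at 0.108% to 0.894% of Cox8a. Control sample 2 was the highest by far. Of the 3 other brown fat markers, Ucp1 was listed at 2.45 in that sample and at 0 to 0.23 in the other 7, whereas Elovl3 and Cidea were highest in Control sample 4, at 3.58 and 2.86. Ndufa4l2, the hypoxia-induced relative of Ndufa4, stood at 4.57, 3.98, 3.6 and 5.55 in the controls and at 4.24, 4.35, 3.10 and 3.65 in Siglec-XII, which is 2.8% to 15.9% of Ndufa4. Control sample 4 was the highest, the groups overlapped, and the difference was -0.59 ± 0.43 (adjusted p = 0.553, limma), the most negative of all members. Of the pericyte and endothelium markers, Notch3 stood at 2.87, 1.17, 0.54 and 2.12 in the controls and at 0.74, 1.10, 0.19 and 0.26 in Siglec-XII. Notch3 and Ndufa4l2 had their lowest values in the same samples, Siglec-XII samples 3 and 4 and Control sample 3. Their highest values were both in Control samples 1 and 4. Kcnj8 of the same list went the other way, at 1.55, 1.44, 1.77 and 1.8 in the controls and 1.39, 1.99, 2.22 and 2.53 in Siglec-XII. It was highest in Siglec-XII samples 3 and 4. The summed TPM of all 8 markers of that list was 6.07 to 13.8 in the controls and 4.69 to 7.17 in Siglec-XII, and their part in the values of Ndufa4l2 was not tested.

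**Figure D5:**
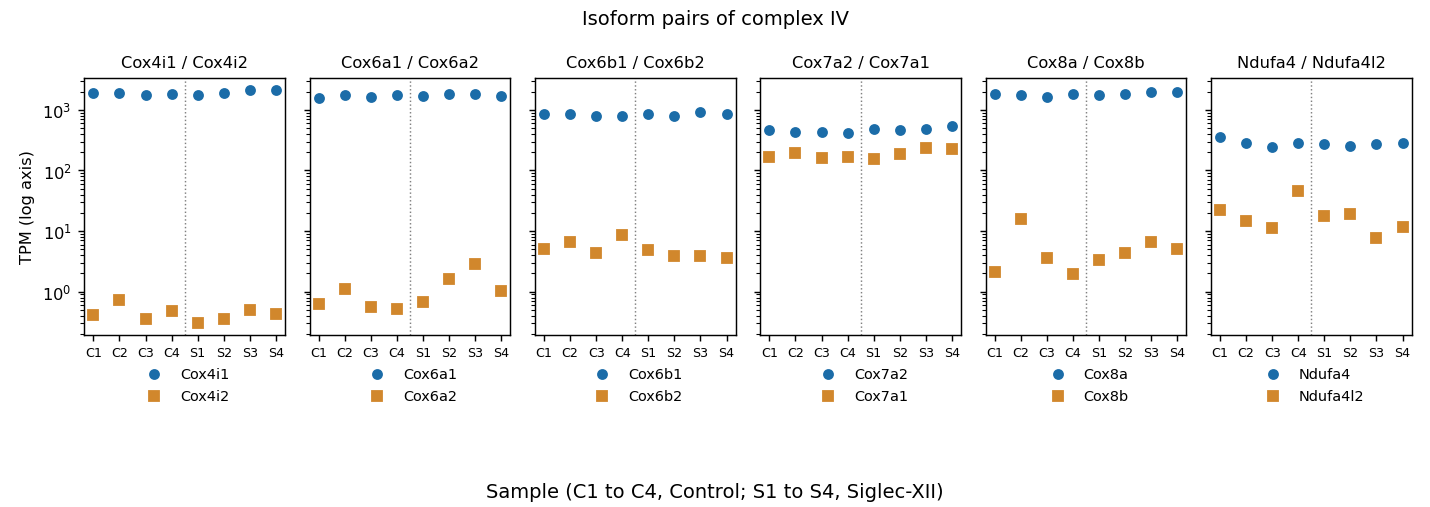
TPM on a log axis of the common isoform (blue circles) and the second isoform (orange squares) of 6 complex IV subunits in each of the 4 Control (C1 to C4) and 4 Siglec-XII (S1 to S4) samples. Cox7a1 lies close under Cox7a2, whereas the other second isoforms lie far below their partners, and the groups overlap in the ratio of every pair.

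The c-ring of the synthase is made from 3 genes that encode the same mature protein. Atp5g3 and Atp5g1 differed by 0.01 ± 0.08 and -0.03 ± 0.09, and Atp5g2 was listed at 5.08 ± 0.13 in the controls and 5.01 ± 0.13 in Siglec-XII. Most of the transcript compared for Atp5g2 also occurs in a copy, Gm10175, whose row was listed far above that of Atp5g2. Atp5g3 lay at 10.29 to 10.48 in the 8 samples. That is above Atp5g1 as listed, at 8.92 to 9.27, and above Atp5g2 and Gm10175 summed, at 9.40 to 9.63. Which of Atp5g1 and Atp5g2 had the higher level cannot be stated. Cox7a2l and Atp5s match the rule by name but are not subunits, and they were kept in the counts of complexes IV and V. Cox7a2l, which joins complexes III and IV into supercomplexes, stood at 8.97, 8.74, 8.63 and 8.66 in the controls and at 8.68 to 8.74 in Siglec-XII. Atp5s, a coupling factor and the lowest of the genes counted with complex V, differed by 0.09 ± 0.14.

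The 6 members below the filter were Ndufa11b and Ndufs6b, listed at 0 in all 8 samples, Cox4i2 at 0.38 to 0.80, the testis isoforms Cox7b2 and Cox8c, listed above 0 only in Control sample 2 at 0.15 and 0.20, and the pseudogene Cox6c2, above 0 only in Siglec-XII sample 1 at 0.89. Of the 8 rows dropped for -ps in the symbol, Ndufb1-ps was listed at 6.60 to 7.01, which is within the range of complex I.

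Several levels depend on copies of a gene elsewhere in the genome. Ndufb4, an accessory subunit of complex I, was listed at 5.45 to 5.77 in the controls and the pseudogene Ndufb4c at 8.23 to 8.73, so that the copy had 6.96 to 8.25 times the TPM of the gene. Over the whole transcript of Ndufb4c (chr15:73809507-73809896, GRCm38) 0 of 390 bases differed from Ndufb4, so reads from that stretch cannot be told apart by sequence. The first 120 bases of the Ndufb4c transcript and bases 95 to 214 of the Ndufb4 transcript are shown, 5′ to 3′, because they carry this point:
Ndufb4: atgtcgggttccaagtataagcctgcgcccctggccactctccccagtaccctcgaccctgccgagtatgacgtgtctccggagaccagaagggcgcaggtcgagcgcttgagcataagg
Ndufb4c: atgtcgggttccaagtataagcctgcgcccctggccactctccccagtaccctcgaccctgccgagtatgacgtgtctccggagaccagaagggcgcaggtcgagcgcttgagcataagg
Neither holds capitals, since no base differs. With both rows summed, Ndufb4 stood at 8.90, 8.59, 8.42 and 8.48 in the controls and 8.55, 8.77, 8.91 and 8.99 in Siglec-XII, a level among the higher ones of complex I, and the groups overlapped.

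The same held in part for Atp5g2 and Cycs. Windows of 31 bases were taken from a single transcript of each gene. Of those of Atp5g2, 87.7% also occur in Gm10175, which was listed at 20.3 to 25.6 times the TPM of Atp5g2. With both summed the level was 9.40 to 9.63 in the controls and 9.41 to 9.58 in Siglec-XII. Of the windows of Cycs, 28.6% occur in Gm10053, listed at 4.58 to 5.63 times its TPM, and with both summed the level was 7.55 to 7.85 and 7.71 to 7.86. The low listed levels of these 3 genes are therefore uncertain. Atp5a1, Ndufs3 and Uqcrc1 appear in a second row with identical values, so the level from 1 row (8.73, 6.19 and 7.51 in the controls) lies about 1 log2 unit below that of both rows together (9.72, 7.18 and 8.51).

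Promoters of the members were searched for motifs of known regulators. NRF1, the ETS-family factor GABP (NRF2) and YY1 are known regulators of nuclear respiratory genes. In the 300 bases around the start site in RefSeq (GRCm38.p6), available for 69 of the 90 members, the NRF1 core GCGCATGCG was found on either strand in 9 members (13%) against 2.6% of 17491 coding genes. The ETS core CCGGAAG was found in 16 (23.2%) against 12.9%, and the YY1 motif AAGATGGCG in 7 (10.1%) against 2.1%. The shares differed by complex: the ETS core was in 4 of 31 promoters of complex I (12.9%), the same share as in all coding genes, and the YY1 motif was in 5 of those 31 and 2 of 15 of complex V but in none of complexes II, III and IV (3, 5 and 14 promoters). The last 3 letters of the ETS core are the first 3 of the YY1 motif, and in 0 members did a match of one overlap a match of the other in this way. These are matches of letters and are given as a description. Windows of 30 bases, read 5′ to 3′ along the gene with the match in capitals, are shown for 6 of the 9 members with an NRF1 match. Each of these windows lies wholly upstream of the start site. The YY1 match of Atp5j, the complex V gene whose groups did not overlap, is shown too. They come from Ndufa11 (complex I, chr17:56717692-56717721, plus strand), Cycs (chr6:50566611-50566640, minus strand), Cox6a1 (complex IV, chr5:115349101-115349130, minus strand) and, in complex V, Atp5g2 (chr15:102671070-102671099), Atp5k (chr5:108434430-108434459), Atp5l (chr9:44920963-44920992) and Atp5j (chr16:84835045-84835074), all on the minus strand:
Ndufa11: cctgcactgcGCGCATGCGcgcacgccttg
Cycs: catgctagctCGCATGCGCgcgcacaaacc
Cox6a1: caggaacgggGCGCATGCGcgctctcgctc
Atp5g2: ggctccggccGCGCATGCGcagagccttcc
Atp5k: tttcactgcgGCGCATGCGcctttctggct
Atp5l: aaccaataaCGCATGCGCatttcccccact
Atp5j: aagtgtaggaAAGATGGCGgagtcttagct
The differences of these 7 genes ran from -0.08 ± 0.08 (Ndufa11) to 0.17 ± 0.09 (Atp5l). Atp5j was included because its groups did not overlap, so a link to its motif cannot be read from it.

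None of the regulators of these genes passed the adjusted test. Of 25 regulators of mitochondrial biogenesis, 0 were higher and 2 lower at unadjusted P, which is a share near the 7.67% of all genes, with a median difference of -0.198 against -0.152 for all genes. The 2 were the deacetylase Sirt1 at -0.44 ± 0.13 and the coactivator Pprc1 at -0.75 ± 0.28, each with an adjusted p of 0.515 (limma). The coactivator Ppargc1a differed by 0.21 ± 0.19, Nrf1 by -0.23 ± 0.19, the GABP subunit Gabpa by -0.20 ± 0.18, the nuclear receptor Esrra by 0.08 ± 0.09 and the mitochondrial DNA factor Tfam by -0.14 ± 0.13. Of 47 tested assembly factors, which build the complexes without staying in them, 0 were higher and 1 was lower (Atpaf1, which assembles the F1 part of the synthase, at -0.24 ± 0.11), with a median of -0.066 and again against 7.67% of all genes lower.

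The 13 subunits encoded in mitochondrial DNA, which share these complexes, had differences of 0.35 to 0.76. At unadjusted P, 12 of 13 were higher in Siglec-XII (all but mt-Co2), against 1.19% of all genes, with a median of 0.591, and none passed the adjusted p (0.515 for each, limma). Their summed TPM was 63500, 52630, 69500 and 69030 in the controls and 79520, 82400, 93490 and 120300 in Siglec-XII, and the groups did not overlap. Without Siglec-XII samples 3 and 4, 3 of 13 passed unadjusted P, against 1.18% of all genes higher and 1.57% lower. Whether the mitochondrially encoded and the nuclear subunits differ in their response was not tested.

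Of the 5 members on chromosome 6, which also carries the ROSA26 locus of the knock-in, the closest to it was Ndufa9 (chr6:126821721-126849136), at 13.8 Mb. This accessory subunit of complex I differed by -0.08 ± 0.10.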

How the data were processed

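Values were those deposited by the authors, log2(TPM + 1) with 1 row per Ensembl gene, for 4 Control and 4 Siglec-XII samples grouped by their labels. The submitters' processing notes name kallisto 0.45.0 and GRCm38. The paper's Methods name another kallisto version and a human build, which was not used here. Libraries are labelled as stranded total RNA, whereas the Methods name an mRNA kit. TPM holds no depth, so no counting interval was computed. The filter (TPM 1 or more in 4 or more samples) left 13164 genes, to which limma (version 3.58.1, trended eBayes) was fitted in R 4.3.3. P values were adjusted over all of them by the Benjamini-Hochberg method, and the fit was tested on simulated data. Differences are Siglec-XII minus Control with their SE and understate changes of low genes. Annotation and transcripts were GENCODE M21 (98.5% of gene identifiers matched), promoters RefSeq. The members and gene lists were chosen with earlier results of these data known. Genes named are the isoform pairs, in each complex the highest and the extremes of difference and P, all that passed unadjusted P, did not overlap or failed the filter, and 5 regulators. Atp5b, Atp5k, Atp5s, Cox7a2l, Ndufa9, Ndufa11, Ndufb4, Ndufb4c, Ndufs3 and Uqcrc2 were named after their values were seen. Alternatives were a TPM filter of 5 or none, pseudocount 0.1, quantile normalization, median centring, array weights, unmoderated variance, a replicate block, summed rows and leaving out each sample.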

Additional observations from a re-analysis of the deposited data

Results flagged for a closer look

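Over the 90 groups checked (45 named genes in Control and in Siglec-XII), 2 held a sample farther from the other 3 than Dixon's 95% limit, where chance gives about 4.5. Cox7a1 was high in Control sample 2 at 7.61, with a gap of 0.853 of the range of its group. Ndufv3, a complex I subunit, was low in Siglec-XII sample 4 at 7.78, with a gap of 0.929 of the range.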

How the results depend on the processing

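No member passed an adjusted p of 0.05 under any of the 18 alternatives (smallest 0.231, Cox6b2 with array weights). The 4 members higher at unadjusted P became 10 under quantile normalization, 12 under median centring, 9 under array weights, 7 under unmoderated variance, 1 to 7 when 1 sample was left out (7 without Control 1, 2 without Control 2 and 1 without Control 3, Control 4, Siglec-XII 3 or Siglec-XII 4) and 0 without Siglec-XII samples 3 and 4, an alternative chosen after seeing the data. The 1 lower became 0 with a TPM filter of 5 (Cox6b2 was then not tested), quantile normalization, median centring and without Siglec-XII samples 3 and 4, and 0 to 1 when 1 sample was left out. Of all genes, 3.28% were higher and 10.8% lower with array weights, and 1.5% and 6.08% with unmoderated variance. With no filter the shares were 0.771% and 3.26% of 52143 genes. With 1 sample left out, 0.737% to 1.38% of all genes were higher and 2.93% to 16.6% lower. Without Siglec-XII samples 3 and 4 the shares were 1.18% and 1.57%. Scaling moved the split over all genes from 1.19% higher and 7.67% lower to 5.35% and 3.10% with quantile normalization and 8.64% and 2.16% with median centring. Under the same 2 scalings, the members' median moved from 0.039 to 0.117 and 0.251, complex I to 0.105 and 0.226, complex II to 0.093 and 0.236, and complex V to 0.11 and 0.259, and median centring moved complex III to 0.266 and complex IV to 0.292. The members' lead over all genes was 0.191, 0.1 and 0.191. The counts that follow join both directions and are to be read beside the shares of all genes given above. Assembly factors past unadjusted P numbered 1, but 8 with no filter, 0 under quantile normalization, 3 under median centring, 6 under array weights, 6 under unmoderated variance, 0 to 3 when 1 sample was left out and 0 without Siglec-XII samples 3 and 4. Biogenesis regulators numbered 2, but 1 with quantile normalization, 1 to 4 when 1 sample was left out and 1 without Siglec-XII samples 3 and 4, and mitochondrially encoded subunits 12, but 3 without those samples. Causes were not tested, and TPM gives no depth to set a limit.

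The replicate numbers did not pair the samples (correlations of same-numbered samples -0.165, -0.204, 0.103 and -0.00249). With the replicate block, 1 member was higher (Cox6c), 0 were lower and 0 assembly factors passed. Of all genes, 0.988% were then higher and 6.19% lower.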
